A study of Mus musculus with 6 samples.

Results

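The collagen genes were compared between neural crest stem cells (NCSC) and mesenchymal stem cells (MSC) grown from the bone marrow of adult mice. A gene was taken as a member when a probe set was annotated to that gene alone and its symbol was Col, a number, the letter a and a number. This gave 42 genes with 82 probe sets, of 18193 genes with 34945 such probe sets on the array. By structure they were 11 fibrillar chains, 6 type IV chains (the basement membrane class), 9 FACIT chains and 16 other chains. FACIT stands for the fibril-associated class, collagens that sit on the surface of fibrils. Both cell types came from female double-transgenic wnt1/CRE-R26R-lacZ mice, 10 weeks old, of mixed C57BL/6 x SV129 background, and no treatment was given. In such mice a Cre recombinase driven by Wnt1 sequences switches on a lacZ reporter in the neural crest and its descendants, and both groups carry it. The cells were cultured in Mesencult medium over at least 5 passages, after which clones were selected, and each type was measured on 3 Affymetrix arrays described as biological replicates. Whether the 3 samples of a type had separate animals or clones behind them is not given in the sources used here. Every p-value thus reflects the spread among 3 samples a type, some of which may be technical, and clone and cell type cannot be told apart if a type was 1 clone. The precision of every value is limited by the number of arrays.

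Collagens are built from alpha chains that wind around each other as a triple helix, so a collagen protein needs all the chains of its trimer to be made in the same cell. The fibrillar types carry the tensile strength of bone, skin and tendon, FACIT types coat these fibrils, type IV forms the sheet-like network of basement membranes, and the remaining types form beaded filaments, anchoring fibrils and hexagonal networks or carry sugar side chains. In bone marrow, stromal cells make much of this matrix. In peripheral nerve, cells of neural crest descent lay down a basement membrane and fibrils of their own.

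Every value below is a probe set intensity on the log2 scale, where a step of 1 is a doubling. A probe set was counted as above background at a log2 value above 4, since the lowest deposited value, 2.12, was shared by 33.5% to 34.5% of each array's probe sets. Probe sets bind with different strength, so levels are compared only between arrays and never between genes. Across the tested genes the arrays correlated at r = 0.985 to 0.997 within a cell type and at 0.756 to 0.772 between types. NCSC 3 and MSC 2 stood furthest from the other 2 arrays of their type, and results that rest on them are given with and without them. All 5 neural crest markers measured (Sox10, Foxd3, Ngfr, Erbb3 and Tfap2a) were above background on all NCSC arrays, and 1 of 5 was in MSC. Their summed linear intensity was 20548 to 26266 in NCSC and 174 to 199.7 in MSC. Of 6 stromal markers, 6 were above background on all NCSC arrays and 5 on all MSC arrays, with sums of 52850 to 60715 in NCSC and 43585 to 49579 in MSC, carried mainly by Cd44 and Pdgfrb. The other 4 differed widely, with Eng 4.69 higher and Nt5e at least 22.8-fold higher in NCSC, and Vcam1 (-4.04) and Pdgfra (-3.17) lower. None of the 3 osteoblast markers and none of the 4 endothelial markers was above background on any array. In these bulk samples, fewer cells of a kind and less RNA per cell cannot be told apart.

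Promoter sequences are shown first for a few collagen genes: the type IV neighbours, because partner chains of 1 trimer are compared below, and the chains with wide differences Col18a1, Col27a1 and Col5a3. RefSeq (mouse build GRCm38.p6) held 36 promoter windows, each from 250 bases before to 50 bases after a transcription start, for 33 of the 42 genes. The Col4a1 window (chr8:11312777-11313076, minus strand) and the Col4a2 window (chr8:11312555-11312854, plus strand) lie on opposite strands and share the 78 bases at the 3′ end of each. The Col4a5 window (chrX:141475169-141475468, plus strand) and the Col4a6 window (chrX:141474027-141474326, minus strand) also lie on opposite strands, with 842 bases between them. The Col18a1 gene has an upstream start (chr10:77166481-77166780, minus strand) and a downstream one (chr10:77113656-77113955, minus strand). Col27a1 (chr4:63215162-63215461, plus strand) and Col5a3 (chr9:20815018-20815317, minus strand) are the fibrillar chains with the largest differences in each direction. Sequences run 5′ to 3′ along the strand of the gene, and capitals mark matches on either strand to the CCAAT box (CCAAT), the GC box (GGGCGG) and the TATA box (TATAAA).
Col4a1: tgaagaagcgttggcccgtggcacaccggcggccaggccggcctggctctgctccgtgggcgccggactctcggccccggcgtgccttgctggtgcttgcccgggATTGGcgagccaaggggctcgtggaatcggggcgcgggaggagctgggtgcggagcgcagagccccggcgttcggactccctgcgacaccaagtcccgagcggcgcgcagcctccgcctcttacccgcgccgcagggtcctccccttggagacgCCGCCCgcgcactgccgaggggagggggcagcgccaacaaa
Col4a2: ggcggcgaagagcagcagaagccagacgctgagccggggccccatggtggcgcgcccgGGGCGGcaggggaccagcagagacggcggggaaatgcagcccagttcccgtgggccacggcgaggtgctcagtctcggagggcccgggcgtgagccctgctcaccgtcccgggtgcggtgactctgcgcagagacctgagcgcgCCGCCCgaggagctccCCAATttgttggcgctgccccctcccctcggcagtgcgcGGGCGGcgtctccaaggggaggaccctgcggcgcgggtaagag
Col4a5: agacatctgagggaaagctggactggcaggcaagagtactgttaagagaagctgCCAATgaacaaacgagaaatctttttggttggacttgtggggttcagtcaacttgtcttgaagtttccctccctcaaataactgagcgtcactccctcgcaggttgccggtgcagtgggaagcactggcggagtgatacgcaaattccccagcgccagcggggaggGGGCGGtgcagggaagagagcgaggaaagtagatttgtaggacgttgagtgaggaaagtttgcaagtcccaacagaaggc
Col4a6: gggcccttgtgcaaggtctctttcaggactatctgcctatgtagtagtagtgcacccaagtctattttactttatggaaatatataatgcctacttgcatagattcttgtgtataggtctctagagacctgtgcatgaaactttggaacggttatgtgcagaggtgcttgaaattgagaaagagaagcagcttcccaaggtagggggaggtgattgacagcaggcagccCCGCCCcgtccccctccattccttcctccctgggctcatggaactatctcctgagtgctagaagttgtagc
Col18a1, upstream start: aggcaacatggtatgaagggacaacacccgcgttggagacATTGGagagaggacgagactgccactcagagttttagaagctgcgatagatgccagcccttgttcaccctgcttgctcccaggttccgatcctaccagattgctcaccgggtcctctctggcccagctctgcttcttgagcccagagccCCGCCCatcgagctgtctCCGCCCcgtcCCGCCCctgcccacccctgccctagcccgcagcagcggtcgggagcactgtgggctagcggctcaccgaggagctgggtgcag
Col18a1, downstream start: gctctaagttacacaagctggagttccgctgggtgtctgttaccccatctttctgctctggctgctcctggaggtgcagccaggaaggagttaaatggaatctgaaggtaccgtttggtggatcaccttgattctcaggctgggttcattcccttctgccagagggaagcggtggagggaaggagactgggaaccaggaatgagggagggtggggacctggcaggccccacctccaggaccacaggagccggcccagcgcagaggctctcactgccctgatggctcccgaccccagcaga
Col27a1: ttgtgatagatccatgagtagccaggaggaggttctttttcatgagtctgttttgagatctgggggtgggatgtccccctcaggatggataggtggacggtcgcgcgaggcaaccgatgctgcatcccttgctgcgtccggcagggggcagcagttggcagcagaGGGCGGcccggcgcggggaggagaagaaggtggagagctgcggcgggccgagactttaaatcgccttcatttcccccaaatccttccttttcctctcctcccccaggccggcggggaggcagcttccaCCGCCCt
Col5a3: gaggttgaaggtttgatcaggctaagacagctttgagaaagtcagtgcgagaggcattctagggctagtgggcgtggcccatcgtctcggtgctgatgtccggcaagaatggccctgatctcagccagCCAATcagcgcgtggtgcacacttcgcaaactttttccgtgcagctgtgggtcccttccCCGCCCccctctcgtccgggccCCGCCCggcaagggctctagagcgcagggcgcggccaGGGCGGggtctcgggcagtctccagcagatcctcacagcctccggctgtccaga

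The GC box was found in 22 of the 36 collagen windows (61.1%) and in 35.7% of all 32851 mouse windows. The CCAAT box was found in 36.1% of the collagen windows and 37.4% of all windows, and the TATA box in 13.9% of the collagen windows and 13.6% of all windows. None of the 8 windows shown holds a TATA box match. The upstream Col18a1 window holds 1 CCAAT box and 3 GC boxes, whereas the downstream window holds neither. The probe sets used here do not say which start was in use. These matches describe letters only, and windows that overlap count the same letters more than once.

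Of the 42 collagen genes, 19 (45.2%) had a probe set above background on every array of both cell types. A further 3 genes, Col9a3, Col14a1 and Col15a1, met this in NCSC only (7.14%), and Col5a3 and Col8a2 met it in MSC only (4.76%). The remaining 18 genes (42.9%) met it in neither. Among all 18193 genes the shares were 53.0% in both, 2.37% in NCSC only, 2.35% in MSC only and 42.3% in neither. The 24 genes with a probe set above background on at least 3 of the 6 arrays were tested, each by its brightest kept probe set. Of these, 10 were higher and 5 lower in NCSC at an adjusted p under 0.05 (limma, Benjamini-Hochberg over all kept probe sets), and 9 were not called. This was 41.7% higher and 20.8% lower among the collagens, against 34.3% higher and 28.7% lower among all 10501 tested genes. Calls of at least 2-fold took in 6 collagens higher and 3 lower (37.5% of 24), beside 29.0% of all genes in either direction. The 95% confidence interval of the difference lay within 2-fold for 12 of the 24 collagens, beside 55.1% of all genes. The median difference was 0.18 for the collagens and 0.056 for all genes. The 5 genes found in 1 cell type only passed the filter through that cell type and so had to differ, and these counts are not support for any shift of the group as a whole.

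**Figure D1:**
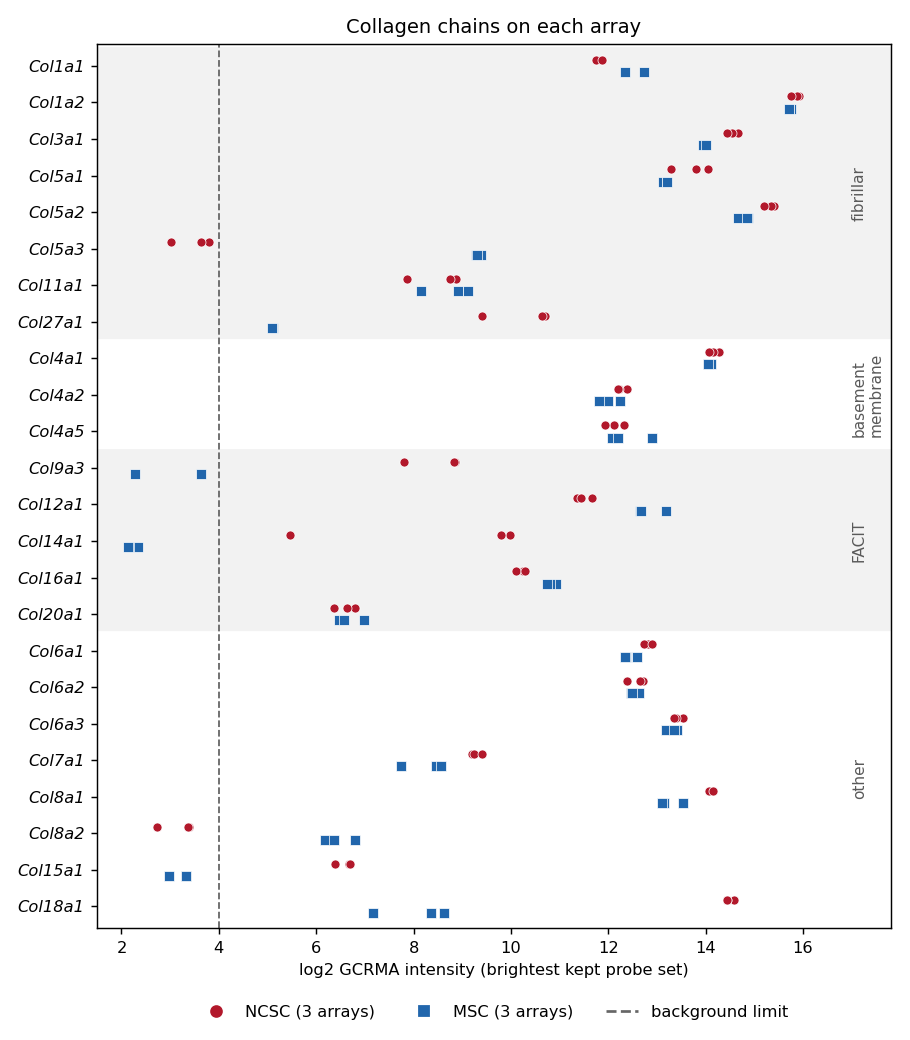
Log2 GCRMA intensity of the brightest kept probe set of each of the 24 tested collagen genes (horizontal axis), with 3 NCSC arrays as circles and 3 MSC arrays as squares beneath them and the background limit of 4 as a dashed line. Col18a1 and Col27a1 are set far to the right in NCSC, Col5a3 and Col8a2 lie left of the limit in NCSC, and the circles and squares of Col4a1, Col4a2 and Col4a5 overlap.

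Among the fibrillar collagens, 8 of 11 genes were tested, of which 3 rose (37.5%), 2 fell and 3 were not called in NCSC. These shares were near the 34.3% higher and 28.7% lower of all genes. Of the 2 that fell, Col5a3 had to differ by the filter. Among those that rose, Col27a1, a fibrillar chain known from developing cartilage, had the largest difference of the brightest probe sets. Its brightest probe set was at 10.70, 10.63 and 9.40 in NCSC, against 5.10, 5.10 and 5.08 in MSC. All 3 NCSC arrays lay far above the MSC arrays, with NCSC 3 the lowest of its type. The difference was 5.15 ± 0.35 (SE, adjusted p = 6.91e-05), which is 35.5-fold on the linear scale, and 5.57 without NCSC 3. The second Col27a1 probe set was at 9.55, 9.25 and 8.37 in NCSC and between 3.13 and 3.15 in MSC, below background, so that NCSC was at least 33.2-fold higher. The cartilage markers Acan, Comp and Matn1 sat at the lowest deposited value on all 6 arrays. Sox9, the transcription factor of cartilage precursors, was at 2.52, 3.61 and 5.25 in NCSC, against 7.58, 6.96 and 7.23 in MSC.

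Col5a3 ran the other way. It encodes a less widespread chain of type V collagen, whose rat counterpart has been studied in Schwann cells. It was at 3.81, 3.64 and 3.01 in NCSC, against 9.28, 9.38 and 9.31 in MSC. None of the NCSC values was above background, so the fold is a lower bound, and Col5a3 was at least 40.0-fold lower in NCSC (difference -5.84 ± 0.21, adjusted p = 4.63e-06). A second Col5a3 probe set was at the lowest deposited value on all 6 arrays, also in MSC, and was not kept. The other type V chains, which set the width of type I fibrils, were above background in both cell types. Col5a2 was at 15.40, 15.33 and 15.19 in NCSC, against 14.87, 14.66 and 14.84 in MSC. The cell types did not overlap, and Col5a2 rose by 0.52 ± 0.10 (adjusted p = 0.00532). Its second probe set gave a larger difference of 2.00 ± 0.16. Col5a1 was at 14.05, 13.80 and 13.29 in NCSC, against 13.13, 13.20 and 13.20 in MSC. The values did not overlap, but the difference of 0.54 ± 0.19 missed the threshold (adjusted p = 0.0532), while its 2 dimmer probe sets passed it with differences of 0.56 and 0.64. The call at 0.56 was lost under 6 alternatives, among them 5 of the 6 that left out 1 array (adjusted p up to 0.0896). Without NCSC 3 the brightest probe set passed as well, at 0.75 (adjusted p = 0.00237).

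Col3a1, the single chain of type III collagen of skin, vessels and marrow stroma, was higher in NCSC. It was at 14.66, 14.54 and 14.44 in NCSC, against 13.97, 13.95 and 14.00 in MSC. Every NCSC array lay above every MSC array, and the difference was 0.57 ± 0.089 (adjusted p = 0.00206). A dimmer probe set of Col3a1 gave 1.25 ± 0.11. Col3a1 lies beside Col5a2 on chromosome 1 with no protein-coding gene between them, and in both genes the dimmer probe set gave the wider difference.

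The type I chains, the main collagen of bone and tendon, were bright in both cell types. Col1a1 was at 11.87, 11.75 and 11.87 in NCSC, against 12.35, 12.34 and 12.72 in MSC. These values did not overlap, and the difference was -0.64 ± 0.13 (adjusted p = 0.00607). The second Col1a1 probe set, of similar brightness, was at 12.10, 12.04 and 11.64 in NCSC, against 12.19, 11.68 and 12.21 in MSC. There the arrays overlapped, and the difference was -0.10 ± 0.20 (adjusted p = 0.694). The mean of both Col1a1 probe sets differed by -0.37 and was not called (adjusted p = 0.0551). Col1a2, the partner chain of the type I trimer, was at 15.91, 15.88 and 15.75 in NCSC, against 15.75, 15.71 and 15.72 in MSC. The lowest NCSC value fell within the range of MSC, and the difference of 0.12 ± 0.082 was not called (adjusted p = 0.248). A second Col1a2 probe set was at 14.82, 14.69 and 14.43 in NCSC, against 14.95, 14.77 and 14.92 in MSC, an overlapping difference of the other sign (-0.23 ± 0.12, adjusted p = 0.148). A much dimmer Col1a2 probe set was lower in NCSC, by -1.14 ± 0.38 (adjusted p = 0.0393), and this call was lost under 6 of the alternatives. Col11a1, a chain of type XI collagen of cartilage fibrils that can also pair with type V chains, was at 8.87, 8.75 and 7.87 in NCSC, against 8.91, 8.15 and 9.11 in MSC. The cell types overlapped, with NCSC 3 and MSC 2 lowest, and the difference was -0.23 ± 0.36 (95% interval -1.09 to 0.64, adjusted p = 0.608). The 3 fibrillar genes below background were Col2a1 and Col11a2, partners of Col11a1 in cartilage, and Col24a1.

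The basement membrane class, which held the type IV genes only, had no call at this threshold. Col18a1 and Col15a1, which encode basement membrane proteoglycans, were counted among the other chains and are given below. Of 6 type IV genes, Col4a1, Col4a2 and Col4a5 were tested, and the 95% interval of each difference lay within 2-fold. Among all genes 37.1% were not called and 55.1% had an interval within 2-fold, and 3 genes are few to set beside these shares. Col4a1, the main chain of the common type IV network, was at 14.27, 14.14 and 14.07 in NCSC, against 14.05, 14.11 and 14.06 in MSC. The arrays of both cell types were interleaved, and the difference was 0.09 ± 0.087 (95% interval -0.12 to 0.30, adjusted p = 0.414). Col4a2, its partner in the trimer and its head-to-head neighbour on chromosome 8, was at 12.38, 12.22 and 12.20 in NCSC, against 11.99, 12.24 and 11.82 in MSC. Only MSC 2 reached the NCSC values, and the difference was 0.25 ± 0.13 (95% interval -0.07 to 0.57, adjusted p = 0.145). Without MSC 2 the Col4a2 difference was 0.36 and passed the threshold (adjusted p = 0.0374). Col4a5, an X-linked chain that joins trimers with Col4a3 and Col4a4 or with Col4a6, was at 12.32, 12.12 and 11.94 in NCSC, against 12.08, 12.90 and 12.20 in MSC. The types overlapped, and the difference was -0.27 ± 0.24 (95% interval -0.84 to 0.31, adjusted p = 0.365). None of Col4a3, Col4a4 and Col4a6 was above background on any array. Of the head-to-head pairs shown above, both Col4a1 and Col4a2 were thus above background on all 6 arrays, whereas of Col4a5 and Col4a6 this held for Col4a5 alone. It held for neither of Col4a3 and Col4a4, which are neighbours on chromosome 1.

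The FACIT class had 5 of 9 genes tested, with 2 higher, 2 lower and 1 not called. Among all genes 34.3% were higher and 28.7% lower. The 2 higher genes, Col14a1 and Col9a3, had to differ by the filter. Col14a1, whose product binds fibrils and is known from skin and tendon, had the largest spread between NCSC arrays of any tested collagen. It was at 9.99, 9.80 and 5.47 in NCSC, against 2.33, 2.15 and 2.12 in MSC. All MSC arrays were below background, and NCSC 3 was far below the other NCSC arrays but above the limit. NCSC was at least 21.4-fold higher (difference 6.22 ± 1.2, adjusted p = 0.00509), and at least 59.5-fold without NCSC 3, 12.4-fold without NCSC 1 and 13.3-fold without NCSC 2. A dimmer Col14a1 probe set that did not pass the filter had the same order, at 7.36, 7.17 and 3.91 in NCSC and between 2.82 and 3.24 in MSC. Col9a3, a chain of type IX collagen, which decorates cartilage fibrils, was at 8.85, 8.83 and 7.80 in NCSC, against 3.64, 3.64 and 2.27 in MSC. Again MSC lay below background, and NCSC was at least 22.5-fold higher (difference 5.31 ± 0.47, adjusted p = 0.000196). The second Col9a3 probe set gave at least 6.39-fold. Without NCSC 3 the lower bounds of the 2 probe sets were 28.6-fold and 9.06-fold. Col9a1 and Col9a2, the other chains of the type IX trimer, were below background on every array, so Col9a3 was detected without its partners.

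Col12a1 and Col16a1 were the FACIT genes lower in NCSC. Col12a1, whose product bridges fibrils in tendon, muscle and bone surface, was at 11.66, 11.36 and 11.45 in NCSC, against 12.66, 13.20 and 12.67 in MSC. The cell types were separated by about 1 log2 step, and the difference was -1.35 ± 0.18 (adjusted p = 0.000965), which is 2.56-fold. Its dimmer probe set gave -2.21 ± 0.29. Col16a1, found at fibril surfaces and near basement membranes, was at 10.25, 10.10 and 10.28 in NCSC, against 10.93, 10.80 and 10.74 in MSC. These did not overlap either, and the difference was -0.61 ± 0.097 (adjusted p = 0.00218). Col20a1 was at 6.79, 6.63 and 6.36 in NCSC, against 6.47, 6.98 and 6.58 in MSC, and these overlapped (difference -0.08 ± 0.18, adjusted p = 0.699). Col19a1 and Col22a1 were below background.

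Of the 16 other chains 8 were tested, with 5 higher (62.5%, against 34.3% of all genes), 1 lower and 2 not called in NCSC. Of these calls Col15a1, higher, and Col8a2, lower, had to differ by the filter, and 8 genes are few to set beside that share. Col18a1 had the widest difference of all tested collagens that were above background in both cell types. It encodes the core protein of a basement membrane proteoglycan, from which the fragment endostatin is released. It was at 14.59, 14.45 and 14.44 in NCSC, against 8.36, 7.16 and 8.62 in MSC. The NCSC arrays were close together, and MSC 2 was the lowest of its type. The difference was 6.45 ± 0.37 (adjusted p = 3.5e-05), which is 87.1-fold, and 6.00 without MSC 2. The second Col18a1 probe set gave 5.99 ± 0.28, which is 63.5-fold. Col15a1, the closest relative of Col18a1 and also a basement membrane proteoglycan, was at 6.68, 6.69 and 6.39 in NCSC, against 3.32, 2.97 and 3.32 in MSC. As MSC was below background, NCSC was at least 6.01-fold higher (difference 3.39 ± 0.14, adjusted p = 8.92e-06).

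The type VIII chains, which form hexagonal networks in vessel walls and the cornea, moved in opposite directions. Col8a1 was at 14.12, 14.08 and 14.16 in NCSC, against 13.14, 13.54 and 13.11 in MSC. It rose by 0.86 ± 0.13 (adjusted p = 0.0021), and its dimmer probe sets gave 0.83 and 1.51. Col8a2 was at 2.73, 3.39 and 3.37 in NCSC, against 6.18, 6.37 and 6.80 in MSC. No NCSC array was above background, and Col8a2 was at least 5.48-fold lower in NCSC (difference -3.29 ± 0.24, adjusted p = 9.51e-05). Col7a1, the anchoring fibril chain that ties epidermis to dermis, was at 9.20, 9.24 and 9.41 in NCSC, against 8.46, 7.75 and 8.56 in MSC. Every NCSC array was above every MSC array, with MSC 2 lowest, and the difference was 1.03 ± 0.22 (adjusted p = 0.00845), which is 2.04-fold.

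The type VI chains, which assemble into beaded filaments around cells, differed little. Col6a1 was at 12.82, 12.73 and 12.90 in NCSC, against 12.37, 12.59 and 12.34 in MSC. These did not overlap, and the difference was 0.38 ± 0.10 (adjusted p = 0.0189). With the replicate number as a block this call was lost (adjusted p = 0.0614). Col6a2, its neighbour on chromosome 10 and partner in the trimer, was at 12.71, 12.64 and 12.37 in NCSC, against 12.47, 12.63 and 12.49 in MSC, a difference of 0.05 ± 0.12 (adjusted p = 0.742). Col6a3 was at 13.54, 13.38 and 13.34 in NCSC, against 13.41, 13.19 and 13.36 in MSC, a difference of 0.10 ± 0.10 (adjusted p = 0.428). For both genes the cell types overlapped. The genes Col6a4, Col6a5, Col10a1, Col13a1, Col17a1, Col23a1, Col25a1 and Col26a1 had no probe set that passed the filter. Col10a1 marks hypertrophic cartilage, and Col17a1 is an epithelial hemidesmosome chain. Over all 18 genes with no kept probe set, the 32 probe sets reached at most 3.22.

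**Figure D2:**
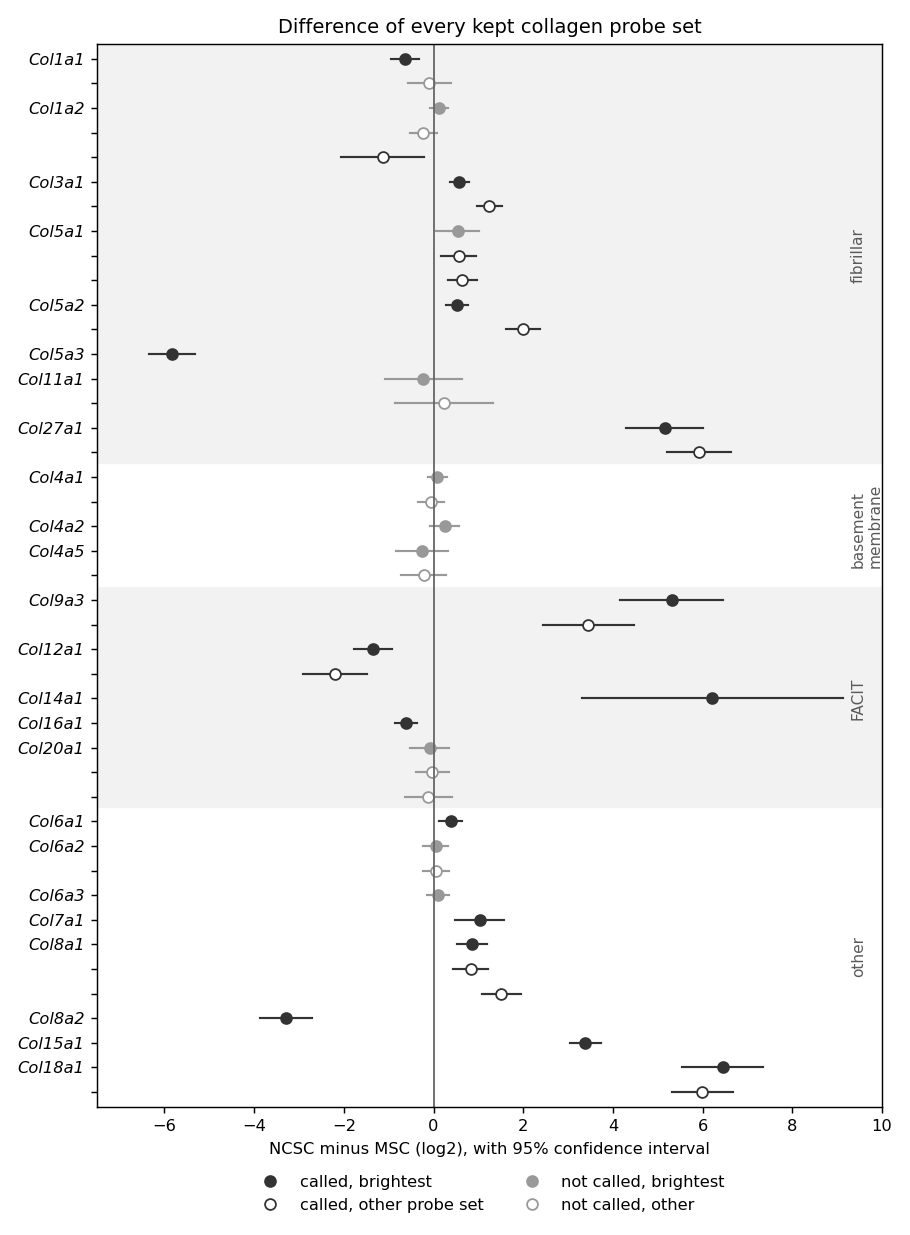
Difference NCSC minus MSC (log2, horizontal axis) with its 95% confidence interval for all 43 kept collagen probe sets, by gene and class. Filled symbols are the brightest probe set of a gene, open symbols its other probe sets, and dark symbols passed an adjusted p of 0.05. The probe sets of a gene never pass in opposite directions, and none of the 5 type IV probe sets passes.

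Counted by probe set, 19 of the 43 kept collagen probe sets were higher and 7 lower in NCSC, beside 33.0% higher and 27.2% lower among all kept probe sets. A single probe set was kept for 9 of the 24 genes and several for 15. The several probe sets gave the same call in 12 genes and mixed calls in 3 (Col1a1, Col1a2 and Col5a1), and in 0 genes were calls in opposite directions. The size of a difference could vary between probe sets of a gene with the same call, as between the 0.52 and 2.00 of Col5a2. A further 7 probe sets of tested genes (of Col5a3, Col9a3, Col12a1, Col14a1 and Col20a1) were not kept. Apart from the dimmer Col14a1 probe set given above, none of them read above 2.16 on any array.

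The spread within a cell type was small for most collagens, with a median SD of 0.13 in NCSC and 0.17 in MSC, against 0.15 and 0.12 for all genes. NCSC 3 was the lowest of the 3 NCSC arrays in 17 of 24 collagens (70.8%) and in 43.7% of all genes. It lay more than 2-fold below the mean of the other NCSC arrays in Col14a1 (-4.42), Col27a1 (-1.27) and Col9a3 (-1.04). A shift of that size in either direction was seen on NCSC 3 in 12.5% of collagens and 4.59% of all genes. These 3 genes are among those that were higher in NCSC. MSC 2 was lowest of its type in 9 of 24 collagens (37.5%), beside 46.7% of all genes, and differed by more than 2-fold in Col18a1 (-1.33). With NCSC 3 and MSC 2 both left out, 12 collagen genes were higher and 5 lower. That fit called 4000 of all 10575 tested genes higher and 3628 lower, against 3600 and 3010 of 10501 with all arrays.

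**Figure D3:**
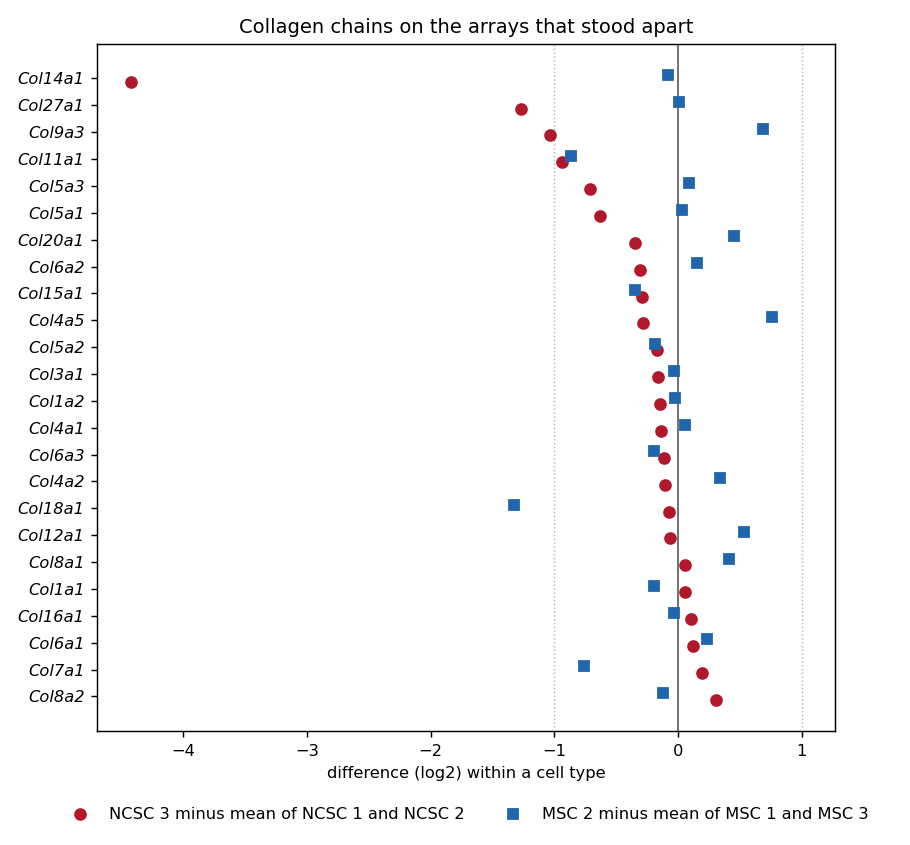
Difference (log2) of NCSC 3 from the mean of NCSC 1 and NCSC 2 (circles) and of MSC 2 from the mean of MSC 1 and MSC 3 (squares) for the 24 tested collagen genes, ordered by NCSC 3. Dotted lines mark 2-fold. Col14a1 lies furthest out at -4.42 on NCSC 3, and Col18a1 is the 1 gene past the line on MSC 2.

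The enzymes and carriers that make collagen were examined as 5 lists with 52 measured genes, of which 44 were tested. Loxl2, Adamts2, Adamts14, Itga11 and Fkbp10 were also on these lists, but no probe set was annotated to any of these symbols alone. Together 12 were higher (27.3%), 16 lower (36.4%) and 16 not called, against 34.3% higher, 28.7% lower and 37.1% not called among all genes. Loxl4, Tll1, Pcolce2, Ddr2, Mrc2 and Adgrg1 passed the filter through the cell type where they were high and so had to differ. Chain modification and folding takes place in the endoplasmic reticulum, where prolines and lysines are hydroxylated before the helix closes. Of 18 such genes 17 were tested, with 4 higher (23.5%) and 5 lower (29.4%) in NCSC and a median difference of -0.16. P4ha3, a prolyl 4-hydroxylase subunit, was at 5.20, 4.42 and 4.56 in NCSC, against 10.17, 10.25 and 10.18 in MSC (difference -5.47 ± 0.21, adjusted p = 5.75e-06). P3h2, a prolyl 3-hydroxylase that acts on type IV collagen, was at 9.93, 9.70 and 9.67 in NCSC, against 4.06, 5.08 and 4.30 in MSC (difference 5.29 ± 0.27, adjusted p = 2.03e-05). The difference was -2.34 ± 0.11 for P3h3 and 1.25 ± 0.16 for Plod2, the lysyl hydroxylase of crosslink sites. The 8 genes not called included the collagen chaperone Serpinh1 (0.02 ± 0.12) and the 4-hydroxylase subunits P4ha1 (-0.16 ± 0.081) and P4hb (-0.20 ± 0.081).

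Of 11 secretion genes, which move the long procollagen out of the endoplasmic reticulum, 10 were tested, with 3 higher, 1 lower and a median of 0.07. These shares were 30% higher and 10% lower, against 34.3% and 28.7% of all genes. The lower gene was Sec24d, a coat protein of the export vesicle, at 11.11, 11.07 and 10.99 in NCSC, against 12.17, 11.97 and 12.16 in MSC (difference -1.05 ± 0.093, adjusted p = 0.0002). Tmem131, Creb3l2 and Ctage5 were higher by 0.74, 0.59 and 0.38.

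Propeptide cleavage frees the mature molecule outside the cell, and 4 of 6 such genes were tested, with 2 higher and 2 lower. Among all genes 34.3% were higher and 28.7% lower, and of these 4 genes Tll1 and Pcolce2 had to differ by the filter. Bmp1, the main enzyme that removes the carboxyl propeptide, was at 11.94, 11.85 and 12.08 in NCSC, against 9.82, 9.98 and 9.93 in MSC (difference 2.05 ± 0.097, adjusted p = 1.52e-05). Tll1, an enzyme of the same family, was at 2.13, 2.12 and 2.12 in NCSC, against 5.88, 6.24 and 5.54 in MSC, which is at least 3.69-fold lower. The enhancers of this cleavage were also opposed. Pcolce was at 13.73, 13.49 and 13.42 in NCSC, against 14.96, 15.11 and 14.97 in MSC (difference -1.47 ± 0.11, adjusted p = 0.000109). Pcolce2 was at 11.77, 11.86 and 12.56 in NCSC, against 3.98, 5.72 and 3.95 in MSC (difference 7.51 ± 0.52, adjusted p = 7.46e-05). MSC 2 alone of the MSC arrays was above background, so the size of this difference rests on values near the limit. Over the fits that kept Pcolce2 the difference was 7.21 to 8.09. For each pair 1 member was higher in each cell type.

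All 6 measured crosslinking genes were tested, with 1 higher, 4 lower (66.7%, against 28.7% of all genes) and 1 not called, and a median of -2.17. The gene not called, Tgm2, went the other way from the lower genes, by 0.37 ± 0.13 (adjusted p = 0.0503), and passed the threshold under 10 alternatives. Of the lower genes Loxl4 had to differ by the filter. Lox, the lysyl oxidase that starts the crosslinks of fibrillar collagen, was at 9.39, 9.45 and 9.74 in NCSC, against 14.71, 14.41 and 14.66 in MSC (difference -5.07 ± 0.13, adjusted p = 1.22e-06). Its relatives fell as well, with Loxl4 at least 10.2-fold lower, Loxl1 at -3.68 ± 0.28 and Loxl3 at -0.66 ± 0.22 (adjusted p = 0.043, lost under 5 alternatives). Pxdn, which crosslinks type IV collagen through sulfilimine bonds, was at 13.04, 12.85 and 13.17 in NCSC, against 11.21, 11.28 and 11.10 in MSC (difference 1.82 ± 0.11, adjusted p = 4.62e-05). Markers of smooth muscle and myofibroblasts had a summed linear intensity of 21124 to 26219 in NCSC and 82628 to 89447 in MSC, with 2 of 4 above background on all NCSC arrays and 3 of 4 on all MSC arrays and Myh11 at the lowest value on all 6. Their part in the differences of the crosslinking genes and of the collagens lower in NCSC was not tested.

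Of 11 collagen receptors 7 were tested, with 2 higher, 4 lower (57.1%, against 28.7% of all genes) and a median of -0.55. Of these 6 calls, 3 (Ddr2, Mrc2 and Adgrg1) had to differ by the filter, and asking for all 6 arrays above background left 3. The discoidin domain receptors, tyrosine kinases that bind the triple helix, were opposed. Ddr2, which prefers fibrillar collagen, was at 2.49, 2.49 and 2.45 in NCSC, against 12.06, 12.28 and 11.97 in MSC, which is at least 275-fold lower (adjusted p = 4.96e-08). Ddr1, which also binds type IV collagen, was at 15.58, 15.34 and 15.21 in NCSC, against 13.84, 14.00 and 13.82 in MSC (difference 1.49 ± 0.12, adjusted p = 0.000152). Mrc2, an uptake receptor for collagen, was at 3.26, 2.87 and 2.85 in NCSC, against 11.86, 12.33 and 11.73 in MSC, which is at least 251-fold lower (adjusted p = 5.07e-07). Adgrg1, a receptor for type III collagen, was at 6.13, 7.10 and 6.52 in NCSC, against 3.86, 3.12 and 3.12 in MSC, which is at least 5.99-fold higher. Adgrg6, a receptor for type IV collagen, differed by -1.23 ± 0.29 and Itgb1, the beta chain shared by the collagen integrins, by -0.55 ± 0.098. Of the macrophage and blood markers, Ptprc, Itgam and Adgre1 sat at their lowest values on all arrays, and Cd68 was at 8.75, 8.89 and 8.76 in NCSC, against 2.22, 3.15 and 2.92 in MSC. The summed intensity of that list was 463 to 516 in NCSC and 31.2 to 37.9 in MSC, and its part in these results was not tested.

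**Figure D4:**
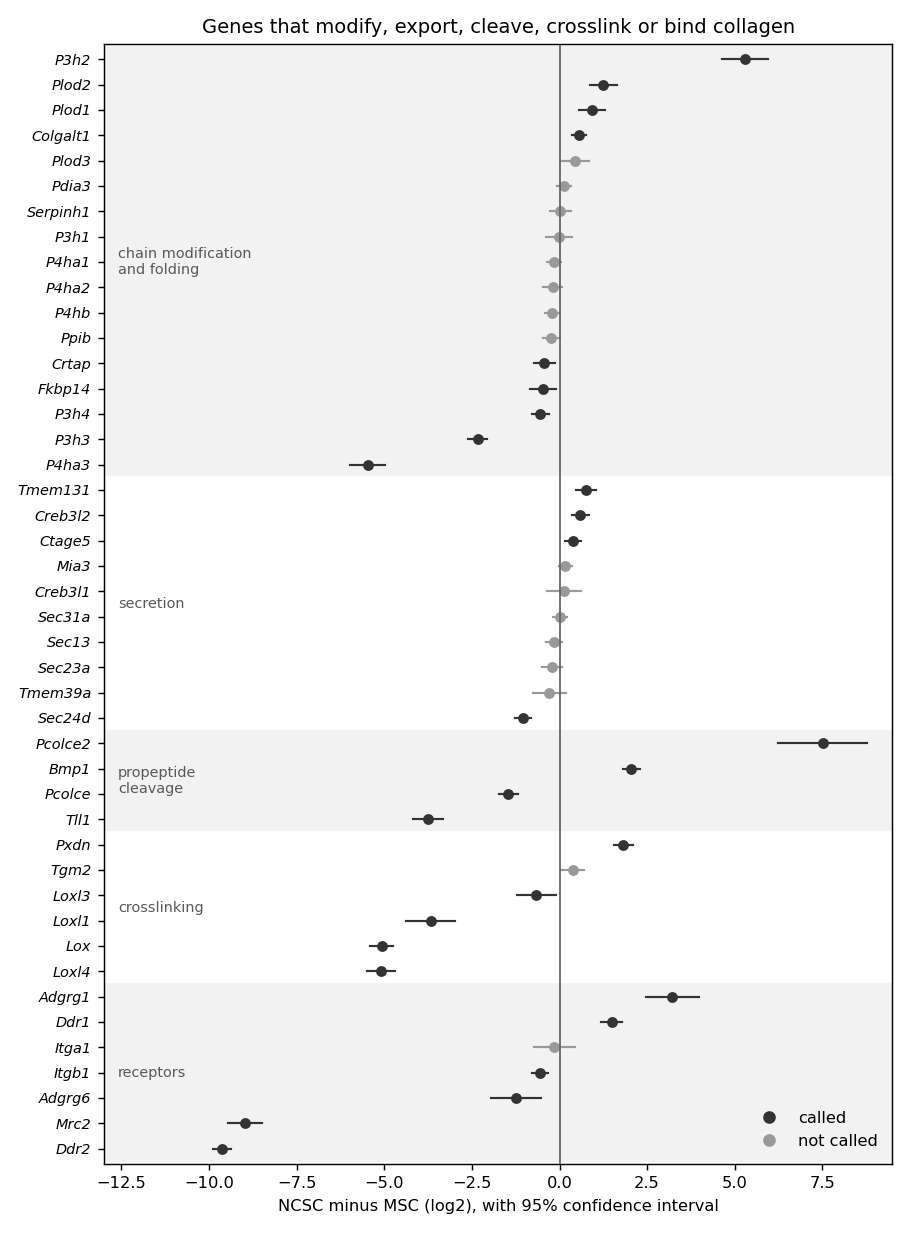
Difference NCSC minus MSC (log2, horizontal axis) with its 95% confidence interval for the 44 tested genes of the 5 lists, dark where the adjusted p was under 0.05. Pcolce2 and P3h2 lie furthest to the right, Ddr2 and Mrc2 furthest to the left, and most folding and secretion genes sit near 0.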

How the data were processed

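Total RNA of 3 NCSC and 3 MSC samples was hybridised as biotin-labelled target to Affymetrix arrays, per the labels' protocols. The authors deposited an intensity for each probe set, on a linear scale and computed by GCRMA, per the submitters' processing notes, and neither a version nor a genome build is given in the sources used here. GCRMA corrects probe background and normalizes between arrays, so small differences share any error of that step. The values, 4.36 to 116597, were taken to log2 with no further normalization. Of 45101 probe sets, 34945 were annotated to 1 gene and 932 to several, which were left out.

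The 18640 probe sets above log2 4 on at least 3 of 6 arrays entered a linear model (limma 3.58.1 under R 4.3.3) with cell type as its only term, moderated by eBayes without trend and tested two-sided, with Benjamini-Hochberg adjustment over all of them. A gene was represented by its brightest kept probe set. Differences are NCSC minus MSC with the standard error of the fit (n = 3 each). Where the dimmer group averaged at or under 4, its values under 4 were set to 4 and the fold was written as a lower bound. The procedure was tested on simulated data. All tested collagens are named, and of each pathway list 2 called genes from each end of the differences. Serpinh1, P4ha1, P4hb, Loxl1, Tgm2, Adgrg6, Itgb1 and the genes in the closing observations were named after their values were seen. The members and lists were chosen with earlier results of these data known.

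Alternatives were a replicate block, other filters, limits and floors, quantile normalization, median centring, other rules for probe sets, other variance models and arrays left out. Where an array was left out, the filter needed as many arrays as the smaller cell type had. Deviations of same-numbered arrays correlated at -0.098, 0.062 and 0.073, and those of differently numbered arrays at -0.106 to 0.110. With 3 arrays a type this cannot exclude a pairing. The main fit took the numbers as names only, and the replicate block is given as an alternative.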

Additional observations from a re-analysis of the deposited data

How the results depend on the processing

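The fit was repeated under 19 alternatives, of which 6 left out 1 array each. No difference called for the 43 kept collagen probe sets or the 44 tested pathway genes changed direction. The replicate block, the other filters and limits, 1 probe set per gene and the trended and robust variance model leave each difference as it was. Under those settings only the adjusted p could change, so they do not check direction. The collagen genes called higher numbered 9 to 11 and those called lower 5 with 1 array left out, and 7 to 12 and 3 to 5 under the other alternatives. The counts over all genes moved as well, from 3600 higher and 3010 lower of 10501 in the main fit. With 1 array left out they were 3072 to 3836 higher and 2490 to 3275 lower, of 10568 to 10608 genes. Under the other alternatives they were 3144 to 4212 higher and 2531 to 3755 lower, of 9636 to 18193 genes. Asking for all 6 arrays above the limit removes genes that are under the limit in 1 cell type. It left 3 collagens lower, 2 FACIT collagens called of 4, 2 propeptide cleavage genes of 4 and 3 receptors of 6. The basement membrane calls were 0 to 1 with 1 array left out. Col4a2 was that 1 call without MSC 2, and 1 was also called with array weights and with MSC 2 and NCSC 3 both left out, with differences of 0.39 (adjusted p = 0.013) and 0.40 (adjusted p = 0.0296). With the replicate number as a block, 9 collagen genes were higher and 5 lower, and the calls of Col6a1 and of the dimmest Col1a2 probe set (adjusted p = 0.0523) were lost. Over all alternatives, adjusted p was 0.00253 to 0.0551 for Col1a1, 0.00148 to 0.17 for Col5a1, which passed under 8 of them, and 0.00192 to 0.0714 for Col6a1, which was also lost without NCSC 1, MSC 1 or MSC 3 (adjusted p = 0.0573, 0.0694 and 0.0714) and with median centring (adjusted p = 0.0564). The Ctage5 call was lost without NCSC 1 (adjusted p = 0.0562) or MSC 3 (adjusted p = 0.0582), that of Adgrg6 with no filter (adjusted p = 0.0656), and that of Loxl3 had an adjusted p of 0.0128 to 0.152. P4hb passed the threshold under 5 alternatives and P4ha1 under 2. The cause of these changes was not tested. Signal near background limits Col5a3, Col8a2, Col9a3, Col14a1 and Col15a1 to lower bounds, and 3 arrays per cell type limit the precision of the rest.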

Other observations

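Several proteins that are not collagens carry a collagen-like triple helix or bind collagen, and 10 of 21 such genes, listed after the collagen values had been seen, passed the filter. Their values are given as a description. Scara5, a ferritin receptor with a collagen-like stretch, was at 9.34, 9.04 and 8.95 in NCSC, against 2.86, 2.47 and 2.53 in MSC. Its relative Scara3 was at 4.47, 4.37 and 5.08 in NCSC, against 10.52, 10.27 and 10.32 in MSC. The 2 scavenger receptor genes thus ran in opposite directions. Ccbe1, a secreted protein with a collagen-like stretch that is required for lymphatic vessel growth, was at 9.82, 9.67 and 9.91 in NCSC, against 3.99, 4.77 and 4.08 in MSC. Colec12, a collectin with a transmembrane segment, was at 7.72, 7.32 and 9.28 in NCSC, against 11.73, 12.48 and 11.96 in MSC, and NCSC 3 was the highest of its type. Emilin2, an elastic fibre protein, was at 2.78, 3.17 and 2.19 in NCSC, against 7.65, 5.50 and 6.60 in MSC. The other tested genes differed less, by 1.09 for C1qtnf12, 0.61 for Emilin1, 0.24 for C1qtnf6, -0.58 for C1qtnf1 and -0.91 for C1qtnf2.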
